A study of Ictalurus punctatus with 24 samples.

Results

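The gene described here is mamdc4 (RefSeq transcript rna-XM_017493367.3), the product of which is also called endotubin, and it is 1 of the 63022 rows in each of the 2 count tables of the series. It was picked by its identifier from the contrast of high-frass with control intestine, with its levels in all 24 libraries of both tissues known. Its levels are therefore given as a description and no p-value is attached to them. The libraries came from the intestine and liver of channel catfish (Ictalurus punctatus) fed for 10 weeks on a control diet without frass, on a low-frass diet (50 g/kg) or on a high-frass diet (300 g/kg). Frass is the waste left by insect larvae, here of the black soldier fly. Each diet and tissue had 4 libraries, so that 12 intestine and 12 liver libraries were sequenced. Each library was made from pooled fish, 3 per pool by the labels and 4 by the methods of the study, and pools carry the same code in both tissues (A1 to A8 and B1 to B10). The labels give neither the strain nor the age of the fish, nor the stretch of intestine that was sampled.

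Endotubin is a membrane protein of the apical endosomes of enterocytes, known mainly from the intestine of suckling mammals, where these cells take up whole proteins from the lumen and break them down in lysosomes. In fish and mammals such protein-absorbing cells, called lysosome-rich enterocytes in zebrafish, bind proteins at the brush border through the receptor cubilin (cubn), its membrane partner amnionless (amn) and the adaptor Dab2. The genes of brush-border uptake, of endosomes and of lysosomes were therefore followed beside mamdc4.

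In the annotation of the genome build used for the counts (Coco_2.0), mamdc4 lies on chromosome 18 from 3822284 to 3839115, a span of 16832 bases, and has 1 annotated transcript. A long non-coding RNA, LOC128635346, covers 11840 of these bases, and reads were counted without regard to strand. That row held 12 counts over the 12 intestine libraries (0 to 3 per library), against 185095 counts for mamdc4. A read over exons of both genes would be counted for neither, so these counts cannot show whether mamdc4 lost reads to the overlap. The next gene, phpt1, a phosphohistidine phosphatase, begins 145 bases beyond the end of mamdc4. Its log2 fold change in high-frass against control intestine was 0.35, and that of noc4l, a ribosome biogenesis gene further along, was -0.37.

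The 12 intestine libraries held 12534783 to 17371695 counts each, and the 12 liver libraries 10494755 to 15604418. The intestine libraries fell into 2 clusters of 6. These were built without mamdc4 and without the genes of the endocytic and marker lists. They are named after cubn and slc15a1b, which thus took no part in building them. The cubn-high cluster holds 2 libraries of the control diet, 1 of low frass and 3 of high frass. The slc15a1b-high cluster holds 2 of the control diet, 3 of low frass and 1 of high frass. The median Pearson r over 10285 features was 0.971 between libraries of a cluster and 0.895 between clusters. In the liver, B1 (high frass) and B2 (low frass) were left out by the study, and only the other 10 liver libraries enter group values below.

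The mamdc4 gene was counted deeply in the intestine of every fish pool, with 7289 to 26257 counts per library, and was lower in all 4 high-frass libraries than in the other 8. Levels are CPM (counts scaled to library size) after TMM scaling, which corrects for a few abundant genes taking a share of the library. In control intestine mamdc4 stood at 1425 (A3), 1246 (A6), 1061 (B4) and 1449 CPM (B10). In low-frass intestine it stood at 1222 (A1), 1435 (A7), 1034 (B2) and 1117 CPM (B7). In high-frass intestine it stood at 538 (A2), 422 (A8), 477 (B1) and 779 CPM (B6). The control and low-frass libraries covered nearly the same range, and the highest high-frass library, B6, lay under the lowest of both.

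The mean was 1295 ± 181 CPM in control intestine, 1202 ± 173 CPM in low-frass intestine and 554 ± 157 CPM in high-frass intestine (SD, n = 4 each). In the edgeR fit over the 12 intestine libraries, the log2 fold change of mamdc4 in high frass against control was -1.23 with a standard error of 0.26 (95% interval -1.79 to -0.66), which is 2.34-fold lower. In high against low frass the log2 fold change was -1.12 with a standard error of 0.26 (95% interval -1.68 to -0.55). Low frass against control gave -0.11 with a standard error of 0.26 (95% interval -0.67 to 0.45). These intervals take no account of the choice of mamdc4 from high frass against control, and are given as a description only. The low-frass and control libraries overlapped for mamdc4, and 76 of 10401 features (0.731%) had no overlap between these diets. High and low frass are both set against the same 4 control libraries.

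**Figure D1:**
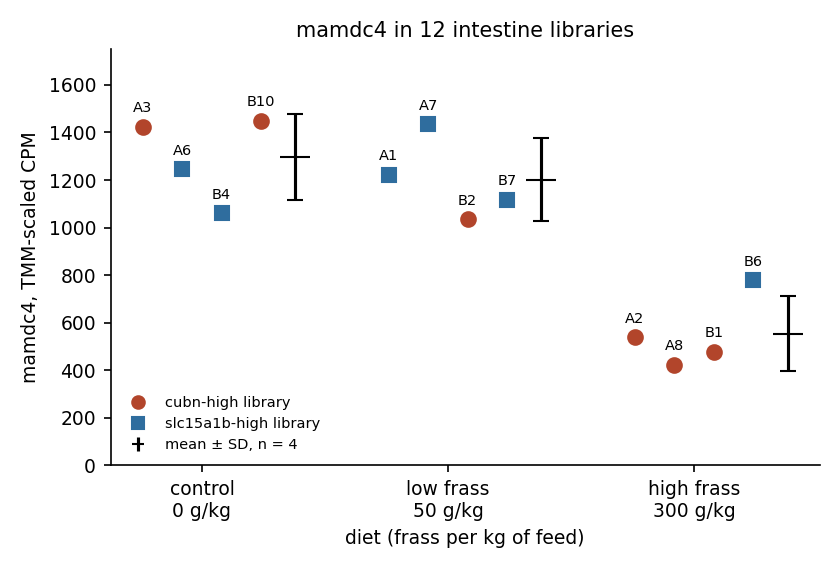
Levels of mamdc4 (TMM-scaled CPM) in each intestine library by diet, with the pool code above each point, the cluster of the library as colour and shape, and the mean ± SD of 4 libraries as a black bar. The 4 high-frass libraries sit between 422 and 779 CPM, under all control and low-frass libraries, which sit between 1034 and 1449 CPM.

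On library totals without TMM scaling, the high-frass libraries were closer together, at 514 to 632 CPM (573 ± 50.8, SD, n = 4), against 923 to 1869 CPM in the other 8. B6 had a TMM factor of 0.761 and A3 the highest factor, 1.31, so that scaling moved these libraries in opposite directions. All 4 high-frass libraries stayed under the other 8 on both scales.

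The diet test across genes called no feature. Of the 10401 features tested with edgeR, 0 (0%) passed both limits, an adjusted p of 0.05 and a 2-fold change, in high frass against control, in low frass against control or in high against low frass. At an unadjusted p under 0.05 there were 295 features (2.84%), 108 (1.04%) and 891 (8.57%) in those comparisons. DESeq2, with the 3 diets in 1 fit, called 2, 1 and 13 features. mamdc4 was among the 2 and among the 13, and not in the low-frass comparison, so its call depends on the tool. It was chosen from high frass against control, and high against low frass uses the same high-frass libraries. Nothing is therefore read from these calls for mamdc4. The p-values set each diet difference against the spread between these pools, which in a fit on diet alone includes the split into clusters. The study, with DESeq2 and p-values adjusted by fdrtool, reported differentially expressed genes in the intestine for both frass diets against control at the same limits. More were called there than here, and the cause was not tested.

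All 4 high-frass libraries lay below all 4 controls for 69 of the 10401 features (0.663%), and below all 8 other libraries for 10 features (0.0961%). Beside mamdc4 these were anp32b, a chaperone of nuclear proteins, the chloride channel gene clcn2c, the sorting nexin gene snx12, the phosphatase-like gene styx, zgc:65894, slc35g2b, rspo2, susd5 and rigi. Their log2 fold changes in high frass against control were -1.71 for rigi, -1.26 for rspo2, -1.07 for susd5, -0.80 for zgc:65894, -0.66 for slc35g2b, -0.56 for clcn2c, -0.37 for snx12, -0.35 for anp32b and -0.27 for styx, beside the -1.23 of mamdc4. The means of rigi, rspo2 and susd5 over the intestine libraries were under 1 CPM. None of the 10 features belongs to the endocytic lists. Since this count uses the contrast from which mamdc4 was taken, nothing is read from it for mamdc4.

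Set against genes of enterocytes along the whole gut, the counts of mamdc4 in high-frass intestine overlapped the other diets for some genes. The ratio of mamdc4 counts to those of vil1, which encodes the brush-border protein villin, was 0.552 to 1.67 in control (median 1.07), 0.422 to 0.905 in low-frass (0.767) and 0.412 to 0.718 in high-frass libraries (0.632). To cdx1a, an intestinal transcription factor gene, the ratio was 1.37 to 2.23 in control (median 1.84), 0.983 to 2.36 in low-frass (1.65) and at least 0.471 in high-frass libraries, with a median of 0.614 and a highest value inside the low-frass range. To dpp4, a brush-border peptidase gene, it was 0.561 to 1.77 in control, 0.458 to 1.06 in low-frass and 0.306 to 0.538 in high-frass libraries. To slc5a1, a glucose transporter gene, it was 0.266 to 3.11 in control, 0.268 to 1.42 in low-frass and 0.175 to 0.368 in high-frass libraries. The high-frass ratios to cdx1a and dpp4 lay under all controls and overlapped low frass, and those to vil1 and slc5a1 overlapped both other diets. The reference genes were not even over the library clusters. dpp4 stood at 804 to 1558 CPM in cubn-high and at 1573 to 2669 CPM in slc15a1b-high libraries. For slc5a1 these ranges were 458 to 2725 CPM and 3189 to 4554 CPM. Since 3 high-frass, 2 control and 1 low-frass libraries are cubn-high, diet and cluster are mixed in the ratios. In bulk tissue, fewer cells of a type and less mamdc4 RNA per cell cannot be told apart.

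Sums of marker lists are CPM on library totals, without TMM scaling. The summed level of the enterocyte list in the intestine (6 of 10 rows passed the filter on low counts) was 4339 to 8922 CPM in control, 5591 to 9306 CPM in low-frass and 5334 to 8176 CPM in high-frass libraries, with overlap throughout. The summed leucocyte list, of which 4 of 58 rows passed, was 726 to 1467 CPM in control, 674 to 919 CPM in low-frass and 1198 to 1550 CPM in high-frass libraries. In that list cd74a, lcp1 and ptprc, which have several annotated transcripts, were at or near 0 in every library, and the sum rests mainly on cd74b and mpeg1.1. Sums after TMM scaling were not computed. On that scale cd74b overlapped between high and low frass, with 672 CPM in high-frass A8 and 898 CPM in low-frass B7. The part of leucocytes in the mamdc4 values was not tested.

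Over all diets together, the level of mamdc4 did not split between the 2 library clusters, in contrast to the uptake genes cubn and amn. Of the 6 cubn-high libraries 3 are of high frass, so diet and cluster are mixed in the values that follow. mamdc4 ran from 422 to 1449 CPM (median 786) in the 6 cubn-high libraries and from 779 to 1435 CPM (median 1169) in the 6 slc15a1b-high libraries, and the 2 ranges overlapped. Within each diet they did not, with cubn-high libraries above the slc15a1b-high ones in control and below them in low and high frass. On library totals only the control libraries stayed apart by cluster. cubn ran from 851 to 3066 CPM (median 1873) in the cubn-high libraries and from 6.85 to 26.4 CPM (median 13.2) in the slc15a1b-high libraries. amn ran from 241 to 598 CPM (median 432) in the cubn-high libraries and from 2.22 to 21.9 CPM (median 3.65) in the slc15a1b-high libraries. The highest library was 448-fold above the lowest for cubn, 270-fold for amn and 3.43-fold for mamdc4. The SD of log2 CPM over the 12 libraries was 3.74 for cubn, 3.39 for amn and 0.64 for mamdc4. Libraries with low cubn and amn thus still held mamdc4, as low-frass A7 did with 1435 CPM of mamdc4, 15.3 CPM of cubn and 3.17 CPM of amn.

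Genes of regional absorption split with the clusters as well. slc10a2, the bile acid transporter of the mammalian ileum, stood at 1072 to 1955 CPM in the cubn-high libraries and at 8.01 to 788 CPM in the slc15a1b-high libraries, with control B4 the highest of these. slc15a1b, a peptide transporter gene, stood at 28.9 to 152 CPM in the cubn-high libraries and at 4234 to 42123 CPM in the slc15a1b-high libraries. fabp6, an ileal bile acid binding protein gene in mammals, overlapped between the clusters (146 to 2949 CPM in cubn-high and 27.8 to 7410 CPM in slc15a1b-high libraries). All 5 proximal gut rows that passed the filter, slc15a1b among them, were lower in every cubn-high library, beside 10.7% of features. Of the 4 distal gut rows that passed, 1 was higher in every cubn-high library, beside 9.28% of features. Since the labels give no gut stretch, and since fewer than 3 distal markers split cleanly, the clusters were given no anatomical name.

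The values by cluster are given as a description, since high-frass libraries that lie under the other 8 must do so in any division of them. In the cubn-high cluster mamdc4 was 1425 and 1449 CPM in control and 1034 CPM in low-frass libraries, and 538, 422 and 477 CPM in the high-frass ones. In the slc15a1b-high cluster it was 1246 and 1061 CPM in control libraries, 1222, 1435 and 1117 CPM in low-frass ones, and 779 CPM in the single high-frass one. The difference of mean log2 CPM between high frass and control was -1.59 in the cubn-high cluster (3 against 2 libraries) and -0.56 in the slc15a1b-high cluster (1 against 2 libraries), and the difference between these values was not tested. With the library cluster as a block in the fit, the log2 fold change in high frass against control was -1.21 with a standard error of 0.22. In that fit it was -0.17 for low frass against control (standard error 0.23) and -1.04 for high against low frass (standard error 0.23).

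**Figure D2:**
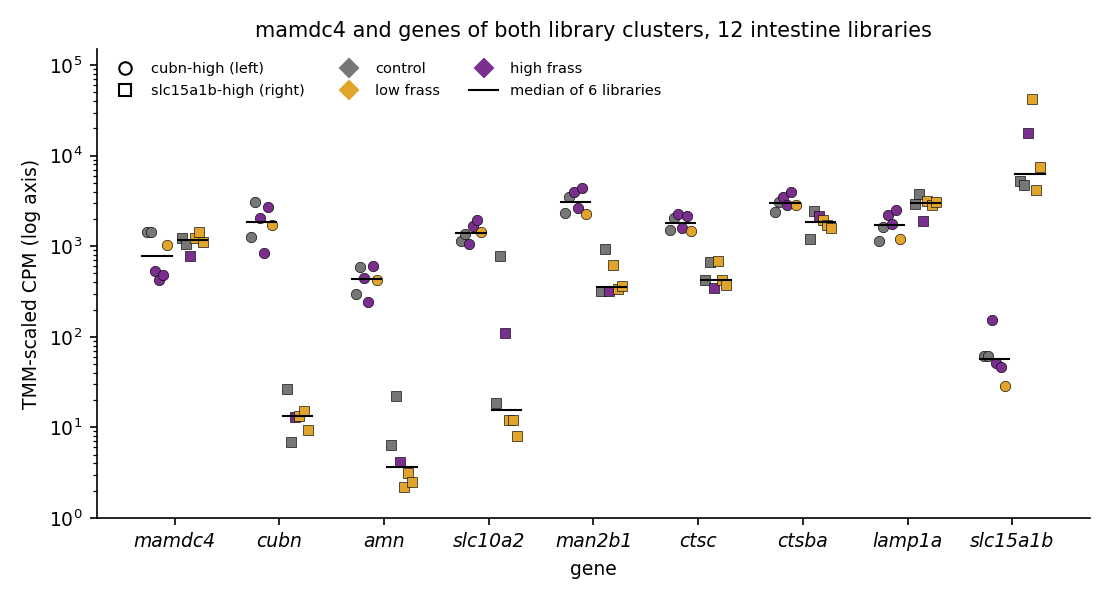
TMM-scaled CPM (log axis) of mamdc4, the uptake genes cubn and amn, slc10a2, 4 lysosomal genes and slc15a1b, with the 6 cubn-high libraries as circles on the left and the 6 slc15a1b-high libraries as squares on the right of each gene, coloured by diet, and the median as a line. The circles and squares of mamdc4 overlap between 422 and 1449 CPM, while those of cubn stand at 851 to 3066 CPM and 6.85 to 26.4 CPM.

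The wider endocytic lists held 124 gene symbols, of which 104 matched the annotation with 196 rows and 78 rows passed the filter. Reads in exons shared by transcripts of a gene are not counted. All 4 rows of dab2 and all 6 rows of lrp2a, a megalin gene, were at 0, while 1 of the 2 rows of clta, a clathrin light chain gene, held 75259 counts. Neither the adaptor nor this megalin gene was measurable, and lrp2b was not matched. For the uptake list (10 rows passed), the median ratio of cubn-high to slc15a1b-high libraries was 2.07, for the endosome list (22 rows) 1.27 and for the lysosome list (46 rows) 2.04, beside 0.983 over all features. All 6 cubn-high libraries lay above all 6 slc15a1b-high libraries for 38 of the 78 rows, beside 965 of 10401 features (9.28%), and below them for 2 rows, beside 1110 features (10.7%). The genes of the lists were left out when the clusters were built.

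The most abundant lysosomal rows showed both patterns. man2b1, the lysosomal alpha-mannosidase gene, stood at 2280 to 4390 CPM in the cubn-high and 317 to 926 CPM in the slc15a1b-high libraries. ctsc, which encodes cathepsin C, stood at 1460 to 2289 CPM in the cubn-high and 346 to 688 CPM in the slc15a1b-high libraries. cd63, a tetraspanin gene of late endosomes, stood at 1422 to 2109 CPM in the cubn-high and 722 to 987 CPM in the slc15a1b-high libraries. These 3 genes did not overlap between the clusters. ctsba, a cathepsin B gene, overlapped slightly, with 2402 to 4014 CPM in the cubn-high and 1190 to 2444 CPM in the slc15a1b-high libraries. lamp1a, a lysosomal membrane glycoprotein gene, ran the other way, with 1144 to 2534 CPM in the cubn-high and 1918 to 3776 CPM in the slc15a1b-high libraries.

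By diet, 0 of the 78 rows were called in any of the 3 comparisons, as was the case for all features. At an unadjusted p under 0.05 there were 0 of 78 rows in high frass against control, 1 in low frass against control (acp5a, an acid phosphatase gene) and 4 in high against low frass (acp5a, ctsh, ctss2.1 and laptm4b), beside the 2.84%, 1.04% and 8.57% of all features given above. The median log2 fold change of the 78 rows in high frass against control was 0.27, beside -0.0044 over all features. With the library cluster as a block it was 0.04. In that fit 1 row had an unadjusted p under 0.05 in high frass against control (scarb2b, log2 fold change 0.48), beside 4.87% of features, 1 in low frass against control (amn, log2 fold change -1.50 with a standard error of 0.51), beside 1.89%, and 4 in high against low frass (acp5a, ctss2.1, ehd1b and naglu), beside 7.78%. For high frass against control in that fit, cubn was at -0.26 with a standard error of 0.45 and amn at -0.89 with a standard error of 0.54, so that neither differed from 0 by more than 2 standard errors.

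**Figure D3:**
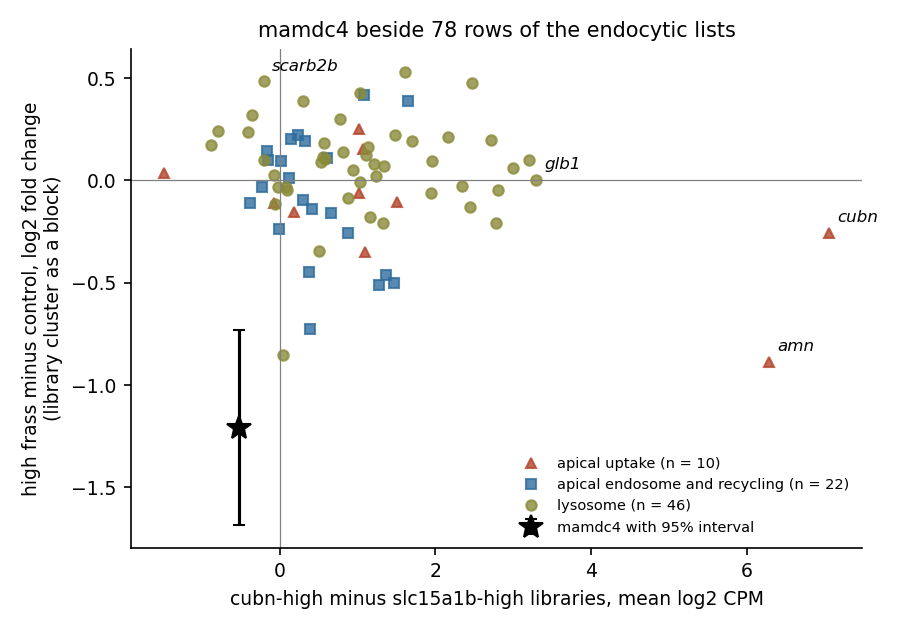
Difference of mean log2 CPM between cubn-high and slc15a1b-high libraries (horizontal axis) against the log2 fold change of high frass over control with the library cluster as a block (vertical axis), for 78 rows of the endocytic lists and for mamdc4 (star, with its 95% interval). mamdc4, chosen from the contrast on the vertical axis, stands at -0.52 and -1.21, and cubn and amn stand far to the right, with -0.26 and -0.89 on the vertical axis.

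The features whose intestine levels were most like those of mamdc4 were found by the SD of their log2 ratio to mamdc4 over the 12 libraries, among 6773 features with a gene symbol and at least 5 CPM. The 10 smallest SDs were 0.31 for chchd3a, a gene of the mitochondrial inner membrane, 0.39 for the peptidase gene npepl1, 0.40 for dbi, which encodes the acyl-CoA binding protein, 0.40 for zgc:65894, 0.41 for tppp2, tcof1 and ppm1la, 0.42 for itm2ca, 0.43 for ssb, which encodes the La RNA-binding protein, and 0.44 for ndufaf1, an assembly factor of respiratory complex I. The SD of mamdc4 itself was 0.64, and the median SD of features with at least 5 CPM was 0.389. These are spreads of single genes and not of ratios, so they give no scale for the likeness. The likeness takes in the diet difference from which mamdc4 was chosen. In high frass against control, the log2 fold changes of the 10 features ran from -0.80 (zgc:65894) to -0.45 (ssb). chchd3a ran from 5.87 to 8.36 CPM in control, from 6.83 to 9.57 CPM in low-frass and from 2.78 to 6.77 CPM in high-frass libraries. The high-frass range overlapped that of control and lay just under that of low frass.

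In the liver mamdc4 was nearly absent, apart from 1 library that goes against its label. The counts were 0 (A3), 0 (A6), 4 (B4) and 14 (B10) in control liver, 0 (A1), 0 (A7) and 7 (B7) in low-frass liver, with 18604 in the left-out library B2, and 0 (A2), 0 (A8) and 3 (B6) in high-frass liver, with 0 in the left-out library B1. Over the 4 control pools there were 18 counts in the liver and 76804 in the intestine, or 0.313 CPM and 1357 CPM on library totals. The intestine level was 4332-fold higher (95% interval 2741 to 7310, which covers counting error only and not the choice of mamdc4). On library totals the median feature was 5.06-fold higher in control intestine than in control liver, and relative to it mamdc4 was 856-fold higher in the intestine (541 to 1440). Over the 10 liver libraries kept by the study there were 28 counts, or 0.199 CPM.

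All 28 counts came from the 4 kept liver libraries with B codes, and the 6 with A codes had 0 of 82803943 counts, which allows up to 3 counts or 0.0362 CPM. Some other genes of the intestine were distributed in a like way over these kept B livers and the A livers. cubn had 35 counts in the B livers and 8 in the A livers, slc10a2 had 31 and 2, and cdx1a had 13 and 3. amn, with 2 and 1, was too low to compare. The left-out liver B1 had 0 counts of each of these genes. Genes with more liver reads were less divided. dpp4 had 47 counts in the B livers and 44 in the A livers, or 0.815 and 0.531 CPM on library totals. For slc5a1 these were 105 and 176 counts, or 1.82 and 2.13 CPM. For slc15a1b they were 115 and 128 counts, or 1.99 and 1.55 CPM, and for slc15a1a 58 and 68 counts, or 1.01 and 0.821 CPM. The mamdc4 counts of the B livers were 0.0161% to 0.0753% of the count in liver B2. What the code letters stand for is not given in the labels, and the source of these reads was not tested.

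**Figure D4:**
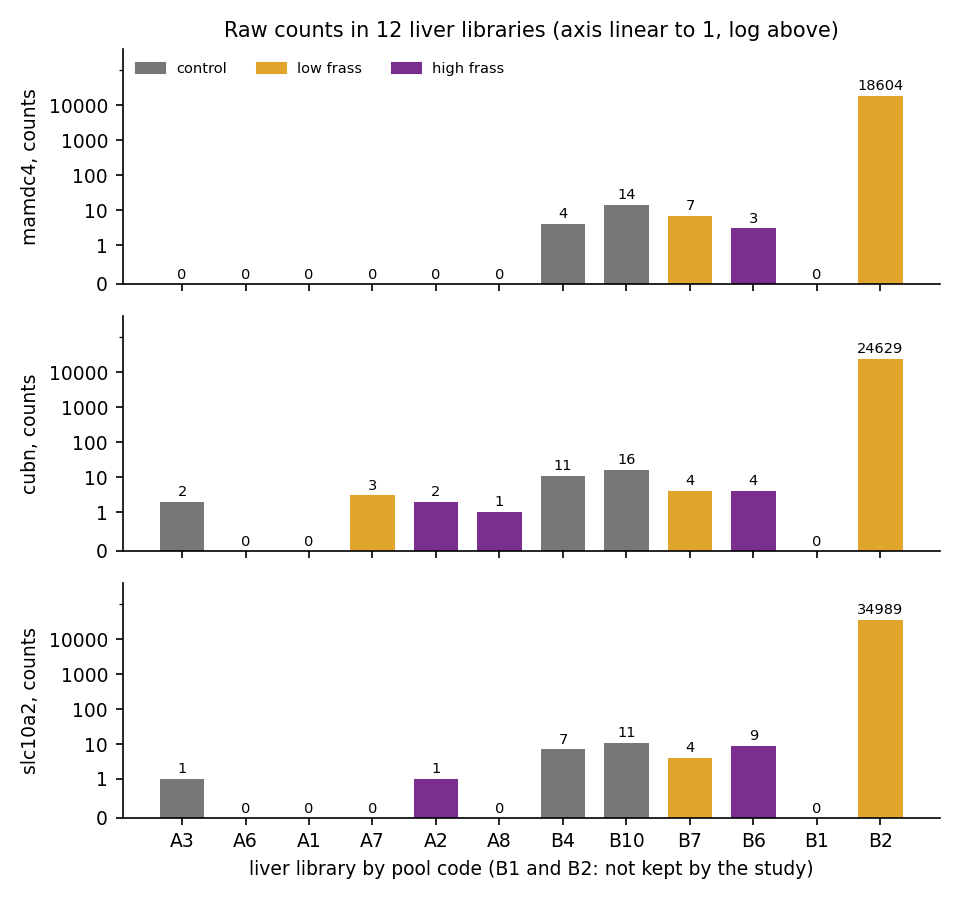
Raw counts of mamdc4, cubn and slc10a2 in the 12 liver libraries, in order of code letter and coloured by diet, on an axis that is linear up to 1 and logarithmic above, with each count printed. mamdc4 has 0 counts in the 6 libraries with A codes, 3 to 14 in 4 libraries with B codes, 0 in B1 and 18604 in B2.

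The liver library B2 held mamdc4 at 1307 CPM on library totals, within the 514 to 1869 CPM of the intestine libraries. The intestine library of the same pool held 1176 CPM, and A7, with 1323 CPM, was nearer. Over the features tested, the log2 CPM of liver B2 had a Pearson r of 0.952 to 0.971 with the 6 cubn-high intestine libraries. With the 6 slc15a1b-high ones it was 0.894 to 0.926. The intestine library of the same pool, with 0.966, was not the most alike. On library totals, liver B2 held 1730 CPM of cubn and 382 CPM of amn, as the cubn-high libraries do, and 7.73 CPM of slc15a1b. On the same scale its hepatocyte list summed to 680 CPM, against 142530 to 231911 CPM in the 10 kept liver libraries. That sum was above the 14.8 to 179 CPM of the cubn-high and the 7.52 to 146 CPM of the slc15a1b-high intestine libraries. Its enterocyte list summed to 5076 CPM, against 33.0 to 65.0 CPM in the kept liver libraries. The library labelled low-frass liver replicate 3 thus goes against its tissue label by these markers.

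Of the endocytic rows, 72 could be tested between the 4 control livers and the 4 control intestines. With edgeR, 33 of them were lower and 7 higher in the liver, beside 2781 features lower (30.5%) and 1841 higher (20.2%) of 9116. pdzk1, a scaffold gene of the brush border, had a log2 fold change of -10.52 in liver against intestine, with a standard error of 0.98 and an adjusted p of 1.3e-05. amn was at -9.94 with a standard error of 1.80, and cubn was at -9.03 with a standard error of 2.05. These were the lowest of the 9 uptake rows tested, and the others ran from -2.99 (clta) to 0.48 (ap2m1a). The lysosomal genes moved in both directions, with 20 of 44 rows called lower and 6 called higher in the liver. Among them glb1, the beta-galactosidase gene, was at -4.47 with a standard error of 0.75. The lysosomal membrane protein gene scarb2b was at 5.10 with a standard error of 0.41. By median, the uptake list was at -1.43, the endosome list at -0.39 and the lysosome list at -0.96 in liver against intestine, beside -0.19 over all features. On library totals without TMM scaling the split of the calls shifts, with 62 rows lower and 2 higher in the liver, beside 7259 features lower and 589 higher.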

How the data were processed

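The authors deposited raw counts per transcript for 12 intestine and 12 liver libraries (poly(A)-selected RNA). According to the study, reads were trimmed with Trimmomatic, aligned with STAR to Coco_2.0 and counted with HTSeq over exons grouped by parent, without strand and in union mode; the submitters' processing notes name Trimmomatic 0.38, STAR 2.7.8a and HTSeq 0.9.0. The deposited counts were not normalized. A read in an exon shared by transcripts of a gene is lost in this counting, which can lower the counts of genes with several transcripts. mamdc4 has 1 transcript, but any exon it shares with the overlapping LOC128635346 would lose reads likewise.

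Here the intestine counts were fitted with edgeR 4.0.16 (R 4.3.3) by the quasi-likelihood test, with the 3 diets as groups, TMM factors, the default filter (a minimum count of 10) and Benjamini-Hochberg adjustment, and a feature was called at an adjusted p under 0.05 and a fold above 2. Control liver and intestine were compared likewise. Before log2, 0.5 CPM was added. Intervals are at 95%, and those of low counts are exact Poisson intervals for counting error. Clusters come from average linkage on 1 minus Pearson r. Alternatives were DESeq2 1.42.0, its size factors, library totals, other filters, 2 groups alone, and blocks for replicate, code letter or cluster, and each replicate left out.

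After removal of diet means, the r between intestine libraries of 1 replicate number ran from -0.71 to 0.52. These values include the split into clusters and come from few libraries. They cannot show whether replicate numbers pair the libraries. Control liver and intestine share pools by their codes (r of -0.073 to -0.012 after removal of tissue means).

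The genes described are mamdc4, cubn, amn, dab2, lrp2a and lrp2b, the 5 most abundant lysosomal members, members called by diet, the 10 features most like mamdc4 and the leading genes of marker lists; others were named after their values were seen. The gene and all lists were chosen with earlier results of these data known. Sequences of mamdc4 were not used here.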

Additional observations from a re-analysis of the deposited data

Results flagged for a closer look

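Of 57 groups of 4 libraries examined, 10 held 1 library far from the other 3 by Dixon's criterion, which chance alone flags in about 1 in 20 groups. In low-frass intestine, replicate 3 (B2), the only cubn-high library of that diet, stood apart for 5 genes. It had 1720 CPM of cubn (others 9.26 to 15.3), 420 CPM of amn (2.22 to 3.17), 2280 CPM of man2b1 (335 to 627), 1600 CPM of cd63 (740 to 784) and 1190 CPM of lamp1a (2840 to 3160). mamdc4 itself did not stand apart in it. High-frass intestine replicate 4 (B6), the only slc15a1b-high library of that diet, had 936 CPM of dbi (others 290 to 341). Low-frass intestine replicate 4 (B7) had 18.2 CPM of zgc:65894 (11.1 to 12.2) and 9.89 CPM of ssb (13.2 to 13.5). In the liver, mamdc4 had 18604 counts in low-frass replicate 3 (B2, others 0 to 7) and 3 counts in high-frass replicate 4 (B6, others 0). Where the others are all 0, any count above 0 is flagged, so nothing is read from this B6 flag. The 95% counting interval of B6, 0.619 to 8.77 counts, overlaps that of a library with 0 counts, which reaches 3.69.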

How the results depend on the processing

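The log2 fold change of mamdc4 stayed negative in all 19 alternatives to each comparison, at -1.42 to -1.11 for high frass against control, -0.33 to -0.06 for low frass against control and -1.30 to -0.94 for high against low frass. mamdc4 was chosen from high frass against control, and all its high-frass libraries lie under the others. The sign in the comparisons with high frass was thus set by that choice, and nothing is read from it. Leaving out 1 replicate gave -1.42 to -1.11, -0.21 to -0.06 and -1.30 to -0.98 for these comparisons. With the replicate number as a block the values were -1.24, -0.09 and -1.14, and no feature was called in any of them; the block changed no call by over 1.5 times. The number of features called by diet was 0 in all runs but those of DESeq2 with the 3 diets in 1 fit, which called 2 in high frass against control, 1 in low frass against control and 13 in high against low frass; the cause was not tested. Endocytic rows called by diet were 0 in every run, DESeq2 included. Scaling to library totals put the median feature at 0.033 for high frass against control, -0.148 for low frass against control and 0.186 for high against low frass, and mamdc4 was then 1.30, 0.18 and 1.12 below those medians on the log2 scale.

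The mean of mamdc4 in the liver was 0.192 CPM over the 10 kept libraries and 109 CPM over all 12, because of B2; without the B codes, an alternative chosen after seeing the data, it was 0. TMM over all 24 libraries lowered its intestine means to 683 CPM in control, 624 CPM in low-frass and 291 CPM in high-frass libraries. Between control liver and intestine, 4622 features and 40 endocytic rows were called, with 4484 to 4830 and 36 to 44 when 1 replicate was left out, and 4329 and 39 with the replicate number, which is also the pool, as a block. Library totals alone, also chosen after seeing the data, gave 7848 features and 64 endocytic rows, with the median feature at -2.34 in liver against intestine. Of the 10 features most like mamdc4, 7 were shared with the list at 1 CPM or more, 1 with that at 50 CPM or more and 3 with that on deviations from cluster means. With 4 pools per diet and tissue, and 1 high-frass library in the slc15a1b-high cluster, diet and cluster are only partly separable.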
